A study of Mus musculus with 3 samples.

Results

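Inflammatory monocytes were picked out of 3 single-cell libraries of tumor-infiltrating leukocytes by raw counts of unique molecular identifiers (UMIs), each of which stands for 1 captured RNA molecule. A droplet barcode was taken when Chil3, F13a1, Ccr2 and Ly6c2 together had at least 3 UMIs, at least 1 of them from F13a1 or Chil3, and Lyz2 had at least 5. It was left out with 5 or more UMIs of the C1q chains (C1qa, C1qb and C1qc), 4 or more of T cell receptor complex genes (Cd3d, Cd3e, Cd3g, Trac, Trbc1 and Trbc2), 2 or more of the neutrophil genes Csf3r, Cxcr2 and Retnlg, or any of Flt3, a receptor of dendritic cells and their precursors. This gave 2010 of 71909 kept barcodes, which were 725 of 22235 with mono-IL-10, 703 of 22707 with the IL-10/2-Trikine and 582 of 26967 with the combination. The members were thus chosen by measured UMI counts of these genes, and the levels of the rule genes are a description of the choice and support nothing.

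Inflammatory (classical) monocytes leave the bone marrow through the chemokine receptor CCR2 and enter inflamed tissue and tumors, where they can turn into macrophages or cells with features of dendritic cells. Interferon-gamma from T and NK cells switches on their chemokines for CXCR3-bearing lymphocytes (Cxcl9, Cxcl10 and Cxcl11), guanylate-binding proteins and antigen presentation, and type I interferon switches on antiviral genes. IL-10 acts on myeloid cells through IL10RA, IL10RB and STAT3 and restrains inflammatory cytokines.

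The cells came from subcutaneous KP1 tumors, grown from 1 mouse small-cell lung cancer line that lacks Rb and p53, in wild-type B6129SF1/J mice. Every mouse received 500000 tumor cells, 3 µg of cytokine on alternate days from day 7 to day 19, and tumors were taken on day 19. Live CD45+ cells were sorted and loaded for 3′ sequencing. Mono-IL-10 (Supermono-10 in the labels) was the IL-10 agent without an IL-2 part, the IL-10/2-Trikine was built to bind receptor chains of IL-10 and IL-2 at once, and the combination added 200 µg of an anti-PD-1 antibody on day 7, day 11, day 15 and day 19. The protocol can also be read as giving that antibody to all mice, the labels call the material T cells although the sort was on CD45, and neither the age nor the number of mice per library is stated in the labels. Elsewhere the study states an earlier start of the cytokine.

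With 1 library per group and none from untreated mice among those analyzed, values carry no replicate error, no test was made, and how far mice of 1 group differ is unknown. A level is a CPM value, that is UMIs of the gene per 1000000 UMIs, summed over all monocytes of a library. Ratios of CPM are on the log2 scale with an exact conditional binomial 95% interval, shares carry an exact (Clopper-Pearson) 95% interval, and ratios of shares a 95% interval on the log scale. All intervals cover counting error only. Series of 3 values follow the order mono-IL-10, IL-10/2-Trikine, combination.

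The monocytes had medians of 7908, 6578 and 7358 UMIs and of 2695, 2429 and 2591 detected genes, with mitochondrial medians of 1.38%, 1.34% and 1.5%. Their UMIs summed to 5722140, 4742940 and 4297447, out of 158570946 to 197176873 UMIs in a whole library. Near-empty droplets (10 to 100 UMIs) gave the composition of free RNA in each library, as CPM, and not its amount in a monocyte droplet. They numbered 145814, 148677 and 131632 and held 7732551, 3136020 and 8669762 UMIs. The IL-10/2-Trikine library thus had the least free RNA by this measure. Pairs of libraries shared 137 to 180 kept barcodes, which were not removed. A doublet caller marked 12.5% of kept barcodes in the mono-IL-10 library, 34 monocytes among them, and 0 in the other libraries, so it had not worked there and no monocyte was removed as a doublet.

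Monocytes made up 3.26% of kept barcodes (3.03 to 3.50), 3.10% (2.87 to 3.33) and 2.16% (1.99 to 2.34). The mono-IL-10 and IL-10/2-Trikine libraries were thus close, with a ratio of 0.949 (0.857 to 1.05), and the combination was below the IL-10/2-Trikine, with a ratio of 0.697 (0.625 to 0.777). Among the 1686, 1490 and 1426 barcodes of a myeloid gate (Lyz2 of at least 5 UMIs and fewer than 4 T cell UMIs) monocytes were 43.0%, 47.2% and 40.8%, with ratios of 1.10 (1.02 to 1.18) and 0.865 (0.797 to 0.939). The first ratio therefore lay on either side of 1 depending on the denominator. It was 0.835 when the rule was applied to barcodes thinned to 2000 UMIs, which left shallower barcodes out. The denominators then fell to 17602, 19585 and 21400, so this value mixes thinning with a change of denominator. C1q macrophages, which needed at least 5 C1q UMIs and otherwise similar limits, numbered 423, 305 and 520, lowest with the IL-10/2-Trikine and highest with the combination, with share ratios of 0.706 (0.610 to 0.817) and 1.44 (1.25 to 1.65) among kept barcodes.

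**Figure D1:**
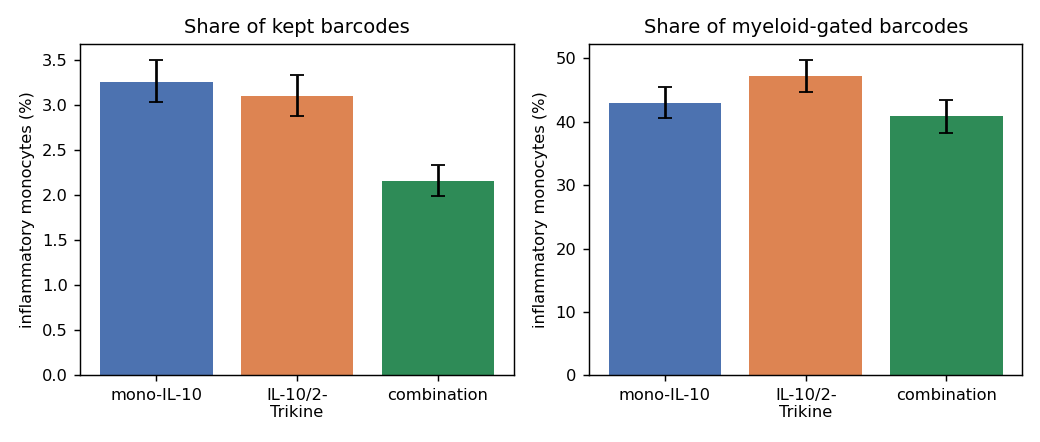
Inflammatory monocytes as a percentage of kept barcodes (left) and of myeloid-gated barcodes (right) in each library, 1 bar per library, with exact 95% intervals for counting error as error bars. The combination bar is the lowest in both panels, at 2.16% and 40.8%, and the order of the other bars depends on the denominator.

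Some thresholds of the rule cut through dense values and others did not. The C1q limit alone kept out 252, 199 and 376 barcodes, with 13, 16 and 21 monocytes at the last allowed sum of 4 and 21, 11 and 12 barcodes at 5. The neutrophil limit alone kept out 192, 132 and 109, and it is the least clean, since 285, 264 and 203 monocytes had a sum of 1 and 130, 83 and 78 barcodes a sum of 2. The T cell limit alone kept out 93, 200 and 104 barcodes, whose T cell sums had medians of 38.0, 55.5 and 35.0, while 4, 5 and 12 monocytes had a sum of 3. Without that limit the first share ratio would be 1.08. Lack of F13a1 and Chil3 removed 117, 125 and 53, too little Lyz2 68, 50 and 113, Flt3 10, 28 and 9, and the marker sum 10, 7 and 5 barcodes. Both Chil3 and F13a1 were present in 62.2%, 54.5% and 54.6% of monocytes, and Chil3 alone in 25.5%, 32.1% and 35.4%.

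The rule genes stood at 2067, 2887 and 3393 CPM for Chil3 (a chitinase-like protein), 473, 497 and 447 for F13a1 (coagulation factor XIII A chain), 1153, 1189 and 1023 for Ccr2, 411, 548 and 569 for Ly6c2 and 8752, 9421 and 7867 for Lyz2 (lysozyme). Classical monocyte genes that the rule did not use were abundant in all libraries. Plac8 was at 6546, 7029 and 6628 CPM, Cd14, the co-receptor for lipopolysaccharide, at 1658, 1789 and 1557, and Vcan, the proteoglycan versican, at 328, 358 and 356. These levels differed little between libraries. The whole list of 26 other classical genes summed to 26096, 26323 and 25454 CPM, against 16616, 17993 and 18544 in C1q macrophages and 2508, 3272 and 3206 in near-empty droplets. Neutrophil-gated barcodes (at least 2 UMIs of the neutrophil genes) numbered 369, 419 and 209 and had 24375, 23924 and 25034 CPM. Of these barcodes 192, 132 and 109 met every other limit of the monocyte rule, and the part of that overlap was not tested. The list thus sets the monocytes apart from C1q macrophages and free RNA but not from the neutrophil-gated barcodes. Its median log2 ratio was -0.03 for IL-10/2-Trikine relative to mono-IL-10, with 12 genes above 0 and 14 below, and -0.11 for the combination over the IL-10/2-Trikine, with 6 above and 20 below, and no gene was 2-fold apart in either pair. Of receptors of mature tissue macrophages, the scavenger receptor Cd163 stood at 0.699, 0.211 and 0 CPM. The mannose receptor Mrc1 stood at 55.0, 92.3 and 89.4 CPM. Macrophage genes were not low as a class, and Csf1r had a UMI in at least 69.8% of monocytes in each library. The list of 25 macrophage maturation genes summed to 6131, 5787 and 6249 CPM, against 7922, 8275 and 8981 in C1q macrophages.

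Markers of several other cell types had a lower CPM in the monocytes than in near-empty droplets, a comparison of composition and not of amount. The T cell, C1q and neutrophil lists hold genes that the rule limits, so their low sums are partly fixed by the choice of members. The 14 T cell markers summed to 73.0, 75.9 and 106 CPM against 3360, 4196 and 4647 in near-empty droplets, and 11 NK and cytotoxic markers to 119, 274 and 371 against 3173, 8850 and 10951. The 9 B cell markers summed to 262, 69.6 and 41.9 against 1063, 1214 and 201, with 0, 1 and 2 of them at 0. The 10 C1q macrophage markers summed to 566, 462 and 532 against 3125, 931 and 2018, the 12 KP1 neuroendocrine markers to 13.6, 20.2 and 16.3 with 4, 3 and 3 at 0, and 10 stromal and endothelial markers to 46.0, 32.9 and 121 with 4, 5 and 1 at 0. Above free RNA stood the 13 neutrophil markers, at 627, 832 and 459 against 174, 153 and 81.0, led by S100a8, Il1r2 and Mmp8, which monocytes also express, and with 2, 2 and 6 markers at 0. The 10 conventional dendritic markers summed to 74.6, 121 and 146 against 175, 136 and 124 CPM. Plasmacytoid dendritic markers stood at 279, 255 and 255 against 491, 173 and 288, and mast and basophil markers at 25.0, 29.3 and 24.4 against 16.6, 31.6 and 15.3, with 7, 4 and 6 of 9 at 0, so each was above free RNA in some libraries. Erythroid and platelet markers were at 2.10, 2.11 and 0.233 against 16.7, 8.29 and 5.19, with 5, 3 and 8 of 9 at 0. The part of these other cells in the results was not tested.

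Over all genes with at least 20 UMIs in a pair and a UMI in both libraries, the median log2 ratio was -0.003 in the first pair (10498 genes) and -0.013 in the second (10247 genes). At least 2-fold higher with the IL-10/2-Trikine than with mono-IL-10 were 2.48% of genes (260) and at least 2-fold lower 1.83% (192). At least 2-fold higher with the combination than with the IL-10/2-Trikine were 1.42% (145) and at least 2-fold lower 2.28% (234). Many of these genes were poorly covered, and only 75, 53, 65 and 72 of them exceeded the near-empty droplets of their higher library. The counts also changed with the cells and genes included, as given under the dependence on processing.

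Interferon-gamma response genes set the combination apart. In the combination over the IL-10/2-Trikine, all 30 genes with enough UMIs, of 31 listed, lay above 0, with a median log2 ratio of 0.70, and 6 of them were at least 2-fold higher, against the 1.42% of all genes. In IL-10/2-Trikine relative to mono-IL-10 the same list had a median of -0.14, with 9 genes above 0 and 20 below, and 2 at least 2-fold higher against 2.48%. The list summed to 7537, 7990 and 12756 CPM in monocytes and to 4216, 3174 and 4716 in near-empty droplets. C1q macrophages had medians of -0.09 and 0.69 over this list, and whether the classes differ was not tested.

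Among them, Cxcl10, a ligand of CXCR3, stood at 1146, 1606 and 2799 CPM, log2 ratios of 0.49 (0.44 to 0.53) and 0.80 (0.76 to 0.84). The related ligand Cxcl9 was at 407, 291 and 615 CPM, -0.48 (-0.58 to -0.39) and 1.08 (0.98 to 1.17), and Cxcl11 at 84.6, 60.5 and 115, -0.48 and 0.92. All 3 ligands were thus highest with the combination, while only Cxcl10 was higher with the IL-10/2-Trikine than with mono-IL-10. The guanylate-binding protein Gbp2, a GTPase of cell-autonomous defense, stood at 370, 319 and 708 CPM, with ratios of -0.22 (-0.31 to -0.12) and 1.15 (1.06 to 1.24). Its relative Gbp2b, which was in no list, was at 181, 175 and 414, and Gbp5 at 215, 250 and 432. Immunity-related GTPases followed, with Iigp1 at 376, 333 and 794 CPM (-0.17 and 1.25), Igtp at 132, 132 and 270 (0.00 and 1.03) and Gm4951, which was in no list, at 149, 138 and 272 (-0.11 and 0.98). For these families the level of 1 copy is uncertain, because near-identical copies can share reads. Cd274, which encodes the PD-1 ligand PD-L1, stood at 347, 311 and 430 CPM, -0.16 (-0.26 to -0.06) and 0.47 (0.37 to 0.57), and it was the combination library that held the highest value.

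A smaller set was higher with each step from mono-IL-10 to the combination. Socs1, an inhibitor of JAK kinases that cytokines induce, stood at 135, 391 and 730 CPM, log2 ratios of 1.53 (1.41 to 1.65) and 0.90 (0.82 to 0.99). The GTPase Irgm1 was at 156, 228 and 417 CPM, 0.55 (0.42 to 0.68) and 0.87 (0.76 to 0.98), its relative Irgm2 at 22, 51.9 and 82.6, and the transcription factor Irf1 at 613, 937 and 1070, 0.61 (0.55 to 0.68) and 0.19 (0.13 to 0.25). Outside the list, Nrg1, which encodes the growth factor neuregulin, had the same order at 454, 827 and 1128 CPM, 0.87 (0.79 to 0.94) and 0.45 (0.39 to 0.51). In near-empty droplets Nrg1 was at 33.8, 41.1 and 32.6 and Socs1 at 51.9, 89.0 and 102. These genes were also highest with the combination in C1q macrophages, where Socs1 had ratios of 1.41 and 1.31 and Nrg1 of 1.17 and 0.26.

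**Figure D2:**
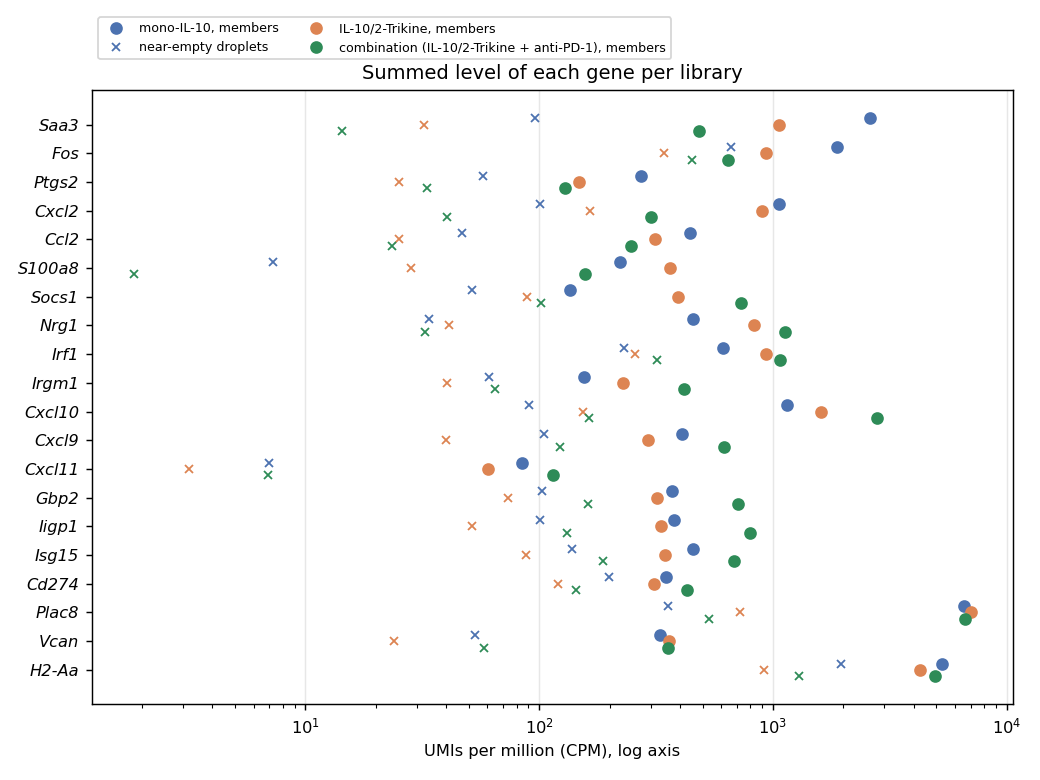
Summed level of 20 genes in inflammatory monocytes (circles) and in near-empty droplets (crosses) of each library, as CPM on a log axis, 1 color per library. Saa3 and Fos run from mono-IL-10 down to the combination, Socs1 and Nrg1 run the other way, and Gbp2, Iigp1 and Cxcl9 are highest with the combination alone.

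The sequences before the start sites of 4 of these genes are given because all 4 genes were highest with the combination and their promoters hold short elements of the kind that interferon-activated factors bind. They run from 250 bases before to 50 after the start site, from RefSeq promoters of build GRCm38.p6, and capitals mark matches to GAAA, any 2 bases and GAAA again, a core of the interferon-stimulated response element (ISRE), or to TTC, any 3 bases and GAA, the gamma-activated site (GAS), searched on both strands. Cxcl10 lies at chr5:92348840-92349139 (minus strand), Gbp2 at chr3:142620413-142620712 (plus strand), Socs1 at chr16:10785487-10785786 (minus strand) and Irf1 at chr11:53769764-53770063 (plus strand, 1 of 2 promoters of the gene).
Cxcl10: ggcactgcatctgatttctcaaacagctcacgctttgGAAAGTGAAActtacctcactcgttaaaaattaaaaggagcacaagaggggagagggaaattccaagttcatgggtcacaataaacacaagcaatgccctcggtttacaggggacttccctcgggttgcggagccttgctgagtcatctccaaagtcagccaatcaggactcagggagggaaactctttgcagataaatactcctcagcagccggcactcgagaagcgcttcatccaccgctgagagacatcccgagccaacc
Gbp2: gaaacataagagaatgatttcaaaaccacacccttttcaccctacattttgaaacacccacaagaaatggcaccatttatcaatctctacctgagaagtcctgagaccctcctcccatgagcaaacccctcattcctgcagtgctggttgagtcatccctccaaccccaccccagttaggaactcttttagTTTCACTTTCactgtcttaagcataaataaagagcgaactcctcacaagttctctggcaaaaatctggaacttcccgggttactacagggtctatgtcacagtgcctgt
Socs1: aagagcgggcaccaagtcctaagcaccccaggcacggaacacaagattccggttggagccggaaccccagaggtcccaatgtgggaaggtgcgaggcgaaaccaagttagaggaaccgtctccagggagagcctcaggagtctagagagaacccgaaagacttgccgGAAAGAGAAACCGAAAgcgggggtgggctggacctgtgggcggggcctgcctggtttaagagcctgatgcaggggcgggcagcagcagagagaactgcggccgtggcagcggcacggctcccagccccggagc
Irf1: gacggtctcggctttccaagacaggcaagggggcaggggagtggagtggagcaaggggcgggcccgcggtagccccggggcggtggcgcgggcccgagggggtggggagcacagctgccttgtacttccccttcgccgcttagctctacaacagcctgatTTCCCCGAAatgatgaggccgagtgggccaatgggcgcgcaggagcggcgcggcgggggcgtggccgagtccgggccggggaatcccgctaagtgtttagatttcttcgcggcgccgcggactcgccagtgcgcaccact
The match begins at position -213 from the start in Cxcl10, at -59 in Gbp2, where it reads on the other strand, and at -90 in Irf1, which has the GAS form. In Socs1 a pair of ISRE matches overlap, at -83 and -77. Of 27025 genes with a promoter in the table, 3.99% held the ISRE core and 9.55% the GAS. Among the interferon-gamma response genes 20 of 31 matched the table by symbol, and 12 of these (60.0%) held the ISRE core and 8 (40%) the GAS. Among type I interferon-stimulated genes 22 of 32 matched, and 13 (59.1%) held the ISRE core and 4 (18.2%) the GAS. Cxcl9, whose level was also highest with the combination, had neither in its window at chr5:92328030-92328329 (minus strand). A match is a description of letters and shows no binding.

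Type I interferon-stimulated genes were lowest with the IL-10/2-Trikine. Of 31 measured genes of 32, 30 were lower with the IL-10/2-Trikine than with mono-IL-10 and 30 were higher with the combination than with the IL-10/2-Trikine, with median log2 ratios of -0.39 and 0.46. Of the genes, 5 were at least 2-fold lower in the first pair, where 1.83% of all genes were, and 5 at least 2-fold higher in the second, where 1.42% were. Isg15, a ubiquitin-like modifier, stood at 454, 346 and 681 CPM, -0.39 (-0.48 to -0.30) and 0.97 (0.89 to 1.06). Ifit2, which blocks translation of foreign RNA, was at 69.0, 31.2 and 65.2, -1.15 (-1.43 to -0.87) and 1.06 (0.77 to 1.36), so the mono-IL-10 and combination levels were alike and both above the IL-10/2-Trikine. Parp14 was at 149, 141 and 237, and Ifih1, a sensor of double-stranded RNA, at 116, 72.1 and 118. The exception was Ifi27l2a, at 436, 462 and 386 CPM, which had the opposite order. The list summed to 3605, 2990 and 4098 CPM, with 1738, 978 and 1520 in near-empty droplets, and its medians in C1q macrophages were -0.31 and 0.51.

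Antigen presentation genes differed in the same direction, with smaller medians than the type I interferon list in both pairs. The 17 class I genes had medians of -0.22 and 0.19, with 16 of 17 lower in the first pair and 17 of 17 higher in the second. H2-K1 was at 2261, 1895 and 2014 CPM, the light chain B2m at 4007, 3942 and 4047, and the peptide transporter chain Tap2 at 146, 105 and 146. This list stood at 12187, 11091 and 12107 CPM against 10836, 10884 and 12600 in near-empty droplets. Class I genes thus made up about the same part of free RNA as of monocyte UMIs, which does not give the amount of free RNA in a monocyte. The 11 class II genes had medians of -0.19 and 0.12. They summed to 26638, 22857 and 25136 CPM against 10443, 4471 and 6955 in near-empty droplets. Both were highest with mono-IL-10 and lowest with the IL-10/2-Trikine, and the part of free RNA was not tested. H2-Aa stood at 5302, 4256 and 4916 CPM, -0.32 (-0.34 to -0.29) and 0.21 (0.18 to 0.24), and the invariant chain Cd74 at 8761, 7509 and 8141. Ifi30, a thiol reductase of antigen processing, was 1 of 3 class II list genes above 0 in the first pair, at 1068, 1231 and 1392 CPM. No gene of either list reached a 2-fold difference.

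**Figure D3:**
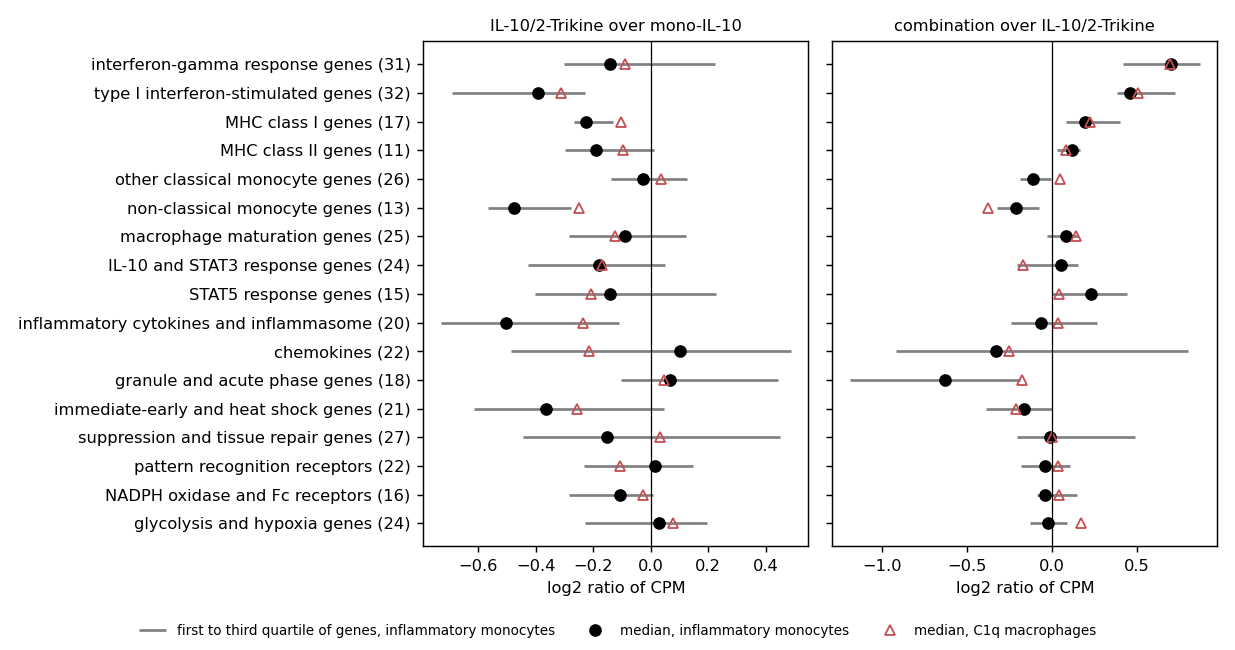
Median log2 ratio of CPM over the measured genes of each list in inflammatory monocytes (filled circles) with the interquartile range over genes (lines), and the median in C1q macrophages (triangles), for IL-10/2-Trikine relative to mono-IL-10 (left) and the combination over the IL-10/2-Trikine (right). List sizes stand in parentheses, and the interferon lists lie at 0.70 and 0.46 on the right and at -0.14 and -0.39 on the left.

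Saa3 was lower at each step from mono-IL-10 to the combination. This acute phase protein, serum amyloid A3, stood at 2593, 1059 and 484 CPM, log2 ratios of -1.29 (-1.34 to -1.25) and -1.13 (-1.20 to -1.06), against 96.0, 32.2 and 14.3 in near-empty droplets. C1q macrophages had ratios of -0.66 and -1.56. Haptoglobin (Hp), another acute phase gene, was at 814, 739 and 647, a much smaller difference in the same order. The granule and acute phase list, of which 12 of 18 genes could be measured, had a median of 0.07 in the first pair and of -0.63 in the second. In the second pair 10 of the 12 were lower, 5 of them at least 2-fold, where 2.28% of all genes were. S100a8, a subunit of calprotectin, was at 222, 364 and 156 CPM, 0.71 (0.60 to 0.81) and -1.22 (-1.35 to -1.09), and its partner S100a9 at 26.2, 82.2 and 20.2. S100a9 came from 25, 40 and 15 monocytes, with 54.6% of its IL-10/2-Trikine UMIs in sub-cluster 6 and 60.9% of its combination UMIs in 1 cell, and its second ratio was -2.02 with all monocytes and -0.98 without sub-clusters 6 to 8. Lcn2, which binds iron carriers of bacteria, was at 69.2, 91.9 and 49.1, and Wfdc21 at 69.9, 78.2 and 34.4. These genes were highest with the IL-10/2-Trikine and lowest with the combination, and S100a8, Lcn2, Wfdc21 and S100a9 are leading genes of sub-cluster 4. That sub-cluster held 11.3%, 24.2% and 10.3% of the monocytes. Neutrophils carry these genes too, and the part of neutrophils in these values was not tested. The neutrophil marker list, at 627, 832 and 459 CPM in the monocytes, itself holds S100a8 and S100a9, so its order is partly theirs. The genes of immature granulocytes Ngp and Camp were at 0 in all 3 libraries, and Mpo and Elane at no more than 0.843 and 1.69 CPM.

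Most inflammatory cytokine and inflammasome genes were lower with the IL-10/2-Trikine than with mono-IL-10. Of 20 listed genes 16 were measured, 12 of them below 0 with a median of -0.50 and 2 at least 2-fold lower, against 1.83% of all genes, and in the combination over the IL-10/2-Trikine 14 were measured with 7 above, 7 below and a median of -0.07. Il1b, which encodes interleukin-1 beta, was at 7437, 5912 and 5376 CPM, -0.33 (-0.35 to -0.31) and -0.14 (-0.16 to -0.11). Ptgs2, the cyclooxygenase of prostaglandin synthesis, was at 273, 148 and 130, -0.89 (-1.02 to -0.76) and -0.19 (-0.35 to -0.02), and the IL-6 family cytokine Osm at 261, 175 and 136. All of these had their highest level with mono-IL-10. In the other direction, Casp4, an inflammatory caspase, was at 143, 171 and 213 CPM, and Il6, from 20, 36 and 32 monocytes, at 5.77, 10.5 and 8.84. Tnf, at 70.1, 40.3 and 48.6 CPM, was close to its near-empty levels of 87.0, 40.8 and 64.2. The inducible nitric oxide synthase Nos2 was rare, at 11.0, 6.75 and 6.75 CPM, and so was Il10 itself, at 8.91, 3.37 and 3.26 against 29.9 to 35.2 in near-empty droplets. Il12a, Il12b, Il23a and Csf3 had too few UMIs for a ratio.

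The CXCR2 ligands were lowest with the combination in summed level. Cxcl2, which draws neutrophils through CXCR2, stood at 1061, 901 and 301 CPM, -0.24 (-0.29 to -0.18) and -1.58 (-1.67 to -1.49). Without sub-clusters 6 to 8 the second ratio of Cxcl2 was -0.94, under a 2-fold difference. The related Cxcl3 was at 33.6, 55.0 and 6.28 and Cxcl1 at 16.4, 23.4 and 4.19, so all 3 CXCR2 ligands had their lowest summed level with the combination. Cxcl1 came from only 16, 18 and 3 monocytes, with 55.6% of its combination UMIs in 1 cell. Cxcl3 came from 30, 36 and 11 monocytes, with 68.6% of its IL-10/2-Trikine UMIs in sub-cluster 6. C1q macrophages had -1.64 for Cxcl2. Ccl2, the ligand of CCR2, was at 440, 312 and 248 CPM, -0.50 (-0.59 to -0.40) and -0.33 (-0.44 to -0.21), and Ccl7, another CCR2 ligand, at 56.3, 52.5 and 27.7. Ccl7 came from 34, 25 and 21 monocytes, and 1 cell held 50.6% of its IL-10/2-Trikine UMIs. Ccl12, also a CCR2 ligand, was at 26.7, 37.5 and 29.8 CPM, but 1 cell held 48.3% of its IL-10/2-Trikine UMIs and 1 cell 26.6% of its combination UMIs, and its ratios lay between -0.48 and 0.74 and between -0.71 and 0.56 over the alternatives, so no order is read for it. The share of monocytes with a Ccl2 UMI after thinning did not follow its summed level, at 17.8%, 15.9% and 18.2%, against 0.521%, 0.169% and 0.292% of T cell-gated barcodes (at least 8 T cell UMIs and no more than 1 of Lyz2) and 42.5%, 38.5% and 39.5% unthinned. With the rule on thinned barcodes the second ratio of Ccl2 was -0.02 and that of Ccl7 -0.23. The chemokines Ccl3 and Ccl4 had the same order, at 129, 78.2 and 40.5 and at 680, 390 and 286, but lay below their near-empty levels, which were 162 to 223 and 536 to 1127 CPM, and the second ratio of Ccl3 was -0.95 with all monocytes and -0.29 without sub-clusters 6 to 8. Ccl5 was at 78.1, 96.6 and 216 CPM, far under near-empty levels of 2356, 2131 and 7016, with a first ratio between -0.31 and 0.43 over the alternatives and a second between 0.73 and 1.53. Gzma, a protease of cytotoxic lymphocytes, was at 27.8, 112 and 161 under 1086, 4489 and 5552. Ccl6 was at 715, 946 and 731. Over the list, 16 of 22 chemokines had a median of 0.10 in the first pair with 1 at least 2-fold higher and 0 lower, a median that lay between -0.30 and 0.20 over the alternatives and so has no settled direction, and 17 had a median of -0.33 in the second with 3 at least 2-fold higher and 3 lower. Over all genes 2.48% were 2-fold higher and 1.83% lower in the first pair, and 1.42% and 2.28% in the second.

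Of 21 immediate-early and heat shock genes, which cells switch on quickly under a stimulus or handling, most were lower with the IL-10/2-Trikine than with mono-IL-10, but 6 were not. Fos stood at 1886, 931 and 642 CPM, -1.02 (-1.07 to -0.97) and -0.54 (-0.60 to -0.47). The libraries spread their monocytes differently over the sub-clusters found by clustering, and sub-cluster 3 held 29.5%, 9.10% and 6.87% of the monocytes. Fos was at 794, 522 and 395 CPM in sub-cluster 1, 1750, 851 and 697 in 2 and 814, 603 and 398 in 4. In sub-cluster 3, which Fos itself leads, it was at 3995, 3949 and 2826, and in 5 at 579, 605 and 469. Dusp1, a phosphatase of MAP kinases, was at 1150, 687 and 525, Zfp36, which degrades cytokine messages, at 1809, 1183 and 1143, and the nuclear receptor Nr4a1 at 527, 282 and 257. All 4 had the mono-IL-10 library on top. Over the list the medians were -0.36 and -0.17, with 15 and 16 genes below 0, and 1 and 2 of them at least 2-fold lower, against 1.83% and 2.28% of all genes. Against the majority, Ier3 stood at 561, 609 and 494 CPM and Egr2 at 15.7, 31.0 and 22.8, both highest with the IL-10/2-Trikine. Near-empty droplets held Fos at 665, 343 and 449 CPM, highest in the same library. Of the non-classical monocyte genes, a list that also holds Nr4a1, 10 of 13 were below 0 in each pair, with medians of -0.47 and -0.22. Treml4 was at 112, 78.0 and 73.8 CPM and Adgre4 at 65.0, 46.8 and 42.1, whereas Cd9 was at 29.9, 62.6 and 46.5, below its near-empty level in each library.

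Other genes with the largest ratios were named by size alone. Lower with the IL-10/2-Trikine were Rasgef1b at 103, 40.7 and 40.5 CPM, the repressor Bcl6 at 123, 61.1 and 71.7, the kinase Ptk2b at 198, 103 and 111, Rgs2, a regulator of G protein signaling, at 288, 155 and 154, Tcf7l2 at 160, 87.3 and 143 and the complement factor Cfb at 169, 92.6 and 158. Of these, Rasgef1b, Ptk2b and Tcf7l2 were also higher in the near-empty droplets of the mono-IL-10 library, at 211, 343 and 530 CPM, than in its monocytes. Higher with the IL-10/2-Trikine were the repressor Jdp2 at 54.2, 112 and 69.3 CPM, Mrps28 at 54.0, 108 and 144, Tnip3, an inhibitor of NF-kappaB signaling, at 97.2, 194 and 214, the metallothionein Mt1 at 127, 252 and 181, Crem at 64.5, 113 and 156 and the caspase Casp6 at 62.4, 103 and 107. In the second pair Serpina3g, at 75.8, 52.7 and 118 CPM, was among the highest, and Ear2, a ribonuclease, at 68.0, 100 and 37.7 (-1.41, but -0.73 without sub-clusters 6 to 8), Gm47283 at 193, 268 and 150, Lyst at 157, 162 and 91.4, 2410006H16Rik at 120, 130 and 80.3 and Gm50022 at 102, 103 and 66.6 were among the lowest.

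The receptor chains that the agents address were measured in each library. Il10ra, the ligand-binding chain of the IL-10 receptor, was at 155, 181 and 190 CPM and Il10rb at 119, 132 and 138. In monocytes thinned to 1000 UMIs each, Il10ra had a UMI in 13.4%, 17.1% and 17.7%, against 6.92%, 3.20% and 3.36% of T cell-gated barcodes. Il2rg, the common gamma chain, was at 199, 168 and 218 CPM against 227, 237 and 341 in near-empty droplets. The beta chain Il2rb was at 5.77, 7.80 and 14.7 CPM, under 112, 269 and 269, and the alpha chain Il2ra had 6, 7 and 16 UMIs in all. Thinned shares for Il2rb were 0.414%, 1.0% and 0.861% in monocytes and 19.4%, 24.2% and 29.4% in T cell-gated barcodes, and unthinned shares in monocytes were 2.34%, 3.56% and 7.04%. The Il2rb CPM thus lay under that of near-empty droplets, which compares composition and not amount. It does not show that the chain is absent, and how much of its signal is free RNA was not tested. The list of 24 receptor chains, JAKs and STATs had medians of 0.02 and 0.06.

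Genes that IL-10 and STAT3 are known to induce did not move as a block. Of 22 measured genes of 24, 6 were above 0 and 16 below in the first pair (median -0.18), and 12 above and 10 below in the second (median 0.05). Socs3, the STAT3 feedback inhibitor, was at 754, 649 and 678 CPM, Bcl3 at 172, 199 and 258 and Il1rn, the IL-1 receptor antagonist, at 170, 195 and 209. The list also holds Saa3, Zfp36 and Dusp1, of which Saa3 and Dusp1 were lower at each step and Zfp36 in the first pair. Of 15 STAT5 response genes, Cish, a feedback inhibitor induced by STAT5, was at 10.3, 26.8 and 40.5 CPM, log2 ratios of 1.38 (0.92 to 1.85) and 0.60 (0.26 to 0.94), but near-empty droplets held 20.3, 48.2 and 33.3. Medians of this list were -0.14 and 0.23, over 14 and 15 genes. In the first pair 3 were at least 2-fold higher, Cish and Socs1 among them, against 2.48% of all genes. In that pair 1, Bcl6, was at least 2-fold lower, against 1.83%. In the second pair 1 was higher and 0 lower, against 1.42% and 2.28%. Irf8, a factor of monocyte development in the same list, was at 310, 369 and 534 CPM.

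Arg1 and Retnla, of the suppression and tissue repair genes, and the chemokine Ccl24 were carried by few cells. Arg1, the arginase of suppressive myeloid cells, was at 19.0, 73.2 and 77.3 CPM, log2 ratios of 1.94 (1.63 to 2.27) and 0.08 (-0.14 to 0.30), from 7, 15 and 18 monocytes with a UMI. Over the alternatives its first ratio ran from 1.19 to 4.92 and its second from -0.58 to 2.27. Ccl24, an eosinophil chemokine, was at 33.4, 73.4 and 93.3 CPM from 20, 36 and 57 monocytes, with a first ratio of 1.14 that was 3.03 at a T cell sum of 0. Both therefore rest on few of the 725, 703 and 582 cells. Retnla stood at 33.2, 151 and 9.31 CPM (2.19 and -4.02), from 5, 15 and 5 monocytes. All 190 of its UMIs with mono-IL-10 and 715 of 717 with the IL-10/2-Trikine lay in 1 sub-cluster, and without sub-clusters 6 to 8 its second ratio was 3.63 in place of -4.02. Over the list 24 of 27 genes were measured, with medians of -0.15 and -0.01, 3 at least 2-fold higher and 2 lower in the first pair (2.48% and 1.83% of all genes) and 0 and 2 in the second (1.42% and 2.28%). Thbs1, which encodes thrombospondin 1, stood at 609, 664 and 507 CPM and was not confined to few cells, with a UMI in 64.4%, 63.7% and 57.9% of monocytes.

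Macrophage maturation genes differed little. Over 23 of 25 genes the medians were -0.09 and 0.08, and no gene was 2-fold apart. Apoe was at 196, 127 and 141 CPM against 150, 46.9 and 133 in near-empty droplets, the growth factor receptor Csf1r at 247, 196 and 192, and Fabp5, a fatty acid carrier, at 298, 310 and 480.

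Shares of monocytes with a UMI followed the summed levels for Saa3, Cxcl10, Socs1, Gbp2 and Fos, but not for every gene. Monocytes were thinned to 1000 UMIs each, which left out 0, 6 and 1 of them, and T cell-gated barcodes, with median depths of 5068, 6940 and 5333 UMIs, were set beside them. That share is not free RNA alone where T cells express a gene themselves, as for Fos, Socs1, Gbp2 and Cd274. Saa3 had a UMI in 60.0% (56.3 to 63.6), 37.2% (33.6 to 40.9) and 17.9% (14.9 to 21.3), against less than 0.32% of T cell-gated barcodes, and unthinned in 79.9%, 59.0% and 38.7%. Cxcl10 had one in 23.2%, 36.4% and 52.5% over 2.53%, 3.37% and 4.30%, and unthinned in 39.6%, 49.4% and 67.5%. The intervals of Saa3 and Cxcl10 lay apart between libraries, but they cover counting error only and not differences between mice. Those of Fos overlapped between the IL-10/2-Trikine (36.8 to 44.2) and the combination (30.1 to 37.9). Those of Gbp2 overlapped between mono-IL-10 (20.8 to 27.1) and the IL-10/2-Trikine (18.9 to 25.2). Socs1 was found in 8.97%, 25.8% and 39.8% over 7.95%, 9.37% and 12.2%, so with mono-IL-10 the share was near that of T cell-gated barcodes, although its summed level of 135 CPM lay above the 51.9 of near-empty droplets, and unthinned in 30.9%, 54.6% and 72.9%. Gbp2 was found in 23.9%, 22% and 42.0% over 9.35%, 6.54% and 11.2%, and unthinned in 68.8%, 62.0% and 80.1%. Fos was found in 60.6%, 40.5% and 33.9% over 15.9%, 7.17% and 7.05%, and unthinned in 90.5%, 78.8% and 72.7%. Cxcl9 and Cd274, lower with the IL-10/2-Trikine than with mono-IL-10 in summed level, were not lower in thinned share. Cxcl9 had a UMI in 11.9%, 12.5% and 21.7% over 1.36%, 0.913% and 1.24%, and unthinned in 21.9%, 22.9% and 39.0%. Cd274 had one in 23.7%, 25.7% and 28.4% over 11.5%, 9.03% and 11.7%, and unthinned in 69.4%, 65.6% and 79.4%. Saa3, Cxcl10 and Fos were found in far more monocytes than Arg1 or Retnla.

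**Figure D4:**
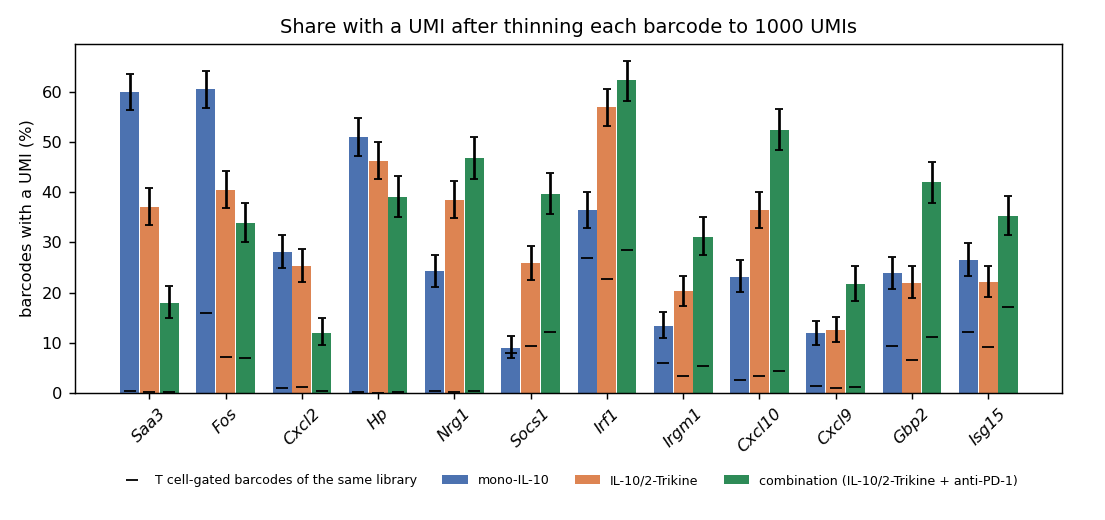
Percentage of inflammatory monocytes with at least 1 UMI of each gene after thinning every barcode to 1000 UMIs, 1 bar per library with exact 95% intervals for counting error, and the same share in T cell-gated barcodes of that library as black dashes. Saa3 runs from 60.0% to 17.9% and Cxcl10 from 23.2% to 52.5%, and Socs1 with mono-IL-10 lies at its dash.

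Within the monocytes, clustering found 10 sub-clusters, of which numbers 1 to 5 held 1826 of 2010 cells. They are left unnamed. The genes that led them were Adgre4, Treml4 and Id3 (sub-cluster 1), Arg1, Ccl24, Cxcl9 and Ifit2 (2), Fos, Jun and Atf3 (3), S100a8, Lcn2 and Mmp8 (4) and Rnd1, Cxcl10 and Socs1 (5). Sub-cluster 1 held 621 cells, and Adgre4 and Treml4 are also in the non-classical list. Among sub-clusters 1 to 5 it had the lowest Ly6c2, at 264, 235 and 252 CPM, and the highest H2-Aa, at 6992, 6392 and 7920. Sub-cluster 6 was led by Negr1, Cxcl3 and G0s2, sub-cluster 7 by Retnla, Jchain and Nfib at a median of 11743 UMIs, and sub-cluster 8 by Klra4, Prf1 and Ncr1, genes of other cell types, and these 3 held 144 cells. Sub-clusters 9 and 10 held the last 40. Because genes that define the sub-clusters differ between libraries, their sizes are given as description only. Sub-cluster 1 held 30.9%, 31.7% and 29.9% of the monocytes, sub-cluster 2 15.3%, 13.5% and 23.7% and sub-cluster 5 4.28%, 11.4% and 20.6%. The part of these sizes in the summed levels of Cxcl10, Socs1 and other leading genes was not tested.

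Levels inside sub-clusters 1 to 5 kept the order of the summed levels for several genes. Saa3 was highest with mono-IL-10 and lowest with the combination in 5 of 5, for example at 2817, 1081 and 399 CPM in sub-cluster 1 and 1942, 896 and 447 in sub-cluster 5. Il1b had that order in 5 of 5 as well, and Fos in 4 of 5. Socs1 had the opposite order in 5 of 5, from 53.4, 101 and 220 CPM in sub-cluster 3 to 516, 948 and 1341 in sub-cluster 5, and Irgm1 in 4 of 5. Gbp2, Cxcl9, Cxcl10 and Isg15 were higher with the combination than with the IL-10/2-Trikine in 5 of 5, but Gbp2 and Cxcl10 were highest with mono-IL-10 in sub-cluster 5, at 705 and 7112 CPM. Cxcl9 was highest with mono-IL-10 in sub-cluster 5, at 567, 347 and 479 CPM, and in sub-cluster 2, which it helps define, at 1956, 1404 and 1686. Cxcl2 was lower with the combination than with the IL-10/2-Trikine in 4 of 5.

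**Figure D5:**
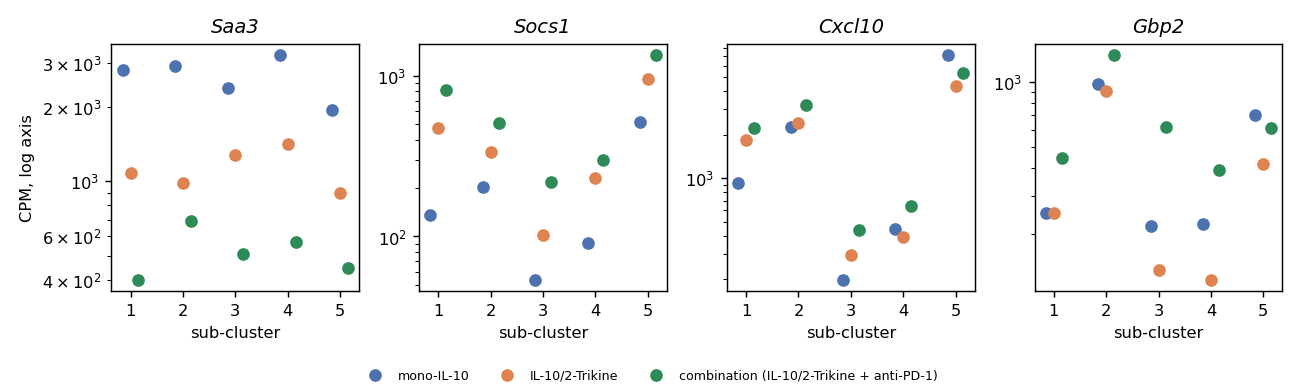
Level of Saa3, Socs1, Cxcl10 and Gbp2 in sub-clusters 1 to 5 of the inflammatory monocytes in each library, as CPM on a log axis, 1 color per library. Saa3 is highest with mono-IL-10 and lowest with the combination in all 5, Socs1 has the reverse order in all 5, and Cxcl10 and Gbp2 have mono-IL-10 on top in sub-cluster 5.

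Cell cycle genes were sparse. The 25 S and G2/M genes summed to 472, 691 and 521 CPM against 3935, 6677 and 4499 in near-empty droplets, and Mki67 had a UMI after thinning in 1.66%, 1.58% and 1.20% of monocytes against 12.2%, 24.9% and 14.8% of T cell-gated barcodes. Their medians were 0.65 and -0.39, with 9 genes at least 2-fold higher in the first pair, where 2.48% of all genes were, and 4 lower in the second, where 2.28% were. The second median turned to 0.12 without sub-clusters 6 to 8, and free RNA moved in the same direction as the monocytes.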

How the data were processed

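Single-cell 3′ libraries of CD45+ cells from KP1 tumors were analyzed, 1 per group, with groups taken from the labels. The deposited count matrices hold raw UMI counts per gene and barcode, empty droplets included, which the authors made with Cell Ranger 8.0.0 per the file headers. The study's methods name another release and build, and the labels another build again, so no gene coordinates were taken from the files. Exonic and intronic reads are stated to be counted together, and antisense or near-identical genes are not separated here.

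Barcodes under 200 genes or above 20% mitochondrial UMIs were dropped, and the monocyte rule was applied to raw counts. The members and gene lists were chosen with earlier results of these data known. UMIs were summed per library. Genes with at least 20 UMIs in a pair of libraries, and a UMI in both, were given a ratio, and a gene was called at a 2-fold difference. Genes absent from 1 library of a pair are thus not counted. With 1 library per group no model was fitted and no p-value computed. The composition of free RNA was measured in barcodes of 10 to 100 UMIs. For shares, barcodes were thinned to 1000 UMIs (seed 1). Sub-clusters came from 1500 variable genes, 20 components, 15 neighbors and Leiden resolution 0.5. Doublets were called with Scrublet through scanpy, but no monocyte was removed for a doublet call. Genes were named when among the 10 highest or 10 lowest ratios of a pair that reached 100 CPM in either library. Mitochondrial, ribosomal, antigen receptor and hemoglobin genes were left out of that ranking, as were Xist, Tsix, Ddx3y, Uty, Eif2s3y and Kdm5d. Genes were also named when in the rule or a cytokine receptor, or when among the 2 to 4 most abundant or most different genes of a list with at least 50 CPM. Genes outside this rule were named after their values were seen. Alternatives changed the rule, the minimum count, the scaling (edgeR 4.0.16 TMM and median of ratios) and the cells included, and the calculation was tested on simulated data. Python 3.11.15, numpy 2.4.6, pandas 2.3.3, scipy 1.17.1, scanpy 1.11.5, leidenalg 0.10.2, matplotlib 3.10.9 and R 4.3.3 were used.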

Additional observations from a re-analysis of the deposited data

How the results depend on the processing

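No paired analysis was possible because each group is 1 library, and leaving out a replicate was likewise not possible. Removing called doublets was not run, since the caller marked 0 barcodes in the IL-10/2-Trikine and combination libraries. The alternatives without the T cell limit, without sub-clusters 6 to 8, above near-empty droplets and without the highest Scrublet scores were chosen after seeing the data. The C1q limit was made stricter in an alternative but never loosened, and the neutrophil limit was not varied. The share ratio of the first pair was 0.835 with the rule on barcodes thinned to 2000 UMIs, 1.08 without the T cell limit and 1.10 among myeloid-gated barcodes, and the share ratio, combination over IL-10/2-Trikine, was 0.778 when thinned, 0.582 at a T cell sum of 0 and 0.865 among myeloid-gated barcodes. Genes at least 2-fold higher in the first pair numbered 406 with the thinned rule, 153 without sub-clusters 6 to 8, 87 at a minimum of 50 UMIs, 1150 at 1 UMI in each library and 75 above near-empty droplets, and those lower 70, 820 and 53 under the last 3. In the second pair those higher numbered 51, 910 and 65 under the same 3, and those lower 64, 877 and 72, with 95 without sub-clusters 6 to 8 and 116 without monocytes that had Mki67 or Top2a. The median of S and G2/M genes was 1.94 in the first pair and -1.15 in the second with the thinned rule, and turned to 0.12 in the second without sub-clusters 6 to 8. Second-pair medians were -0.20 for other classical genes at a T cell sum of 0, 0.046 for MHC class I with the thinned rule and 0.11 for glycolysis and hypoxia without sub-clusters 6 to 8. Of ratios that were at least 2-fold, those of the second pair that changed sign were Il2ra (-0.43) and Hspa1b (0.091) with the thinned rule, Ccnb2 (0.29), Retnla (3.63) and Lyz1 (0.16) without sub-clusters 6 to 8, and Ccnb2 (0.079) as a mean over cells. Smaller ratios, such as those of Ccl12 and Arg1 in the second pair, could change sign as well. The cause was not tested. First-pair medians that took either direction were those of chemokines (-0.30 to 0.20), suppression and repair (-0.18 to 0.03), granule and acute phase (-0.04 to 0.16), other classical (-0.05 to 0.01), pattern recognition (-0.06 to 0.04), glycolysis (-0.08 to 0.04) and receptor genes (-0.04 to 0.04), and second-pair ones those of inflammatory cytokines (-0.16 to 0.01), chemokine and adhesion receptors (-0.04 to 0.09), suppression and repair (-0.14 to 0.07) and glycolysis (-0.09 to 0.11). The interferon-gamma medians stayed within -0.17 to -0.13 and 0.67 to 0.83, the type I interferon medians within -0.44 to -0.32 and 0.41 to 0.56, Saa3 within -1.33 to -1.23 and -1.20 to -1.01, and Socs1 within 1.37 to 1.64 and 0.80 to 1.05.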

Other observations

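The 22 pattern recognition receptors had median log2 ratios of 0.01 and -0.05, with 11 above and 11 below 0 in the first pair and 9 and 13 in the second. Clec4e, a receptor for mycobacterial glycolipid and dying cells, stood at 668, 538 and 426 CPM in mono-IL-10, IL-10/2-Trikine and combination monocytes, the beta-glucan receptor Clec7a at 793, 947 and 836, and Tlr2 at 181, 135 and 139. The 16 NADPH oxidase and Fc receptor genes had medians of -0.11 and -0.04, with the oxidase chain Cybb at 1091, 1013 and 894 CPM, the signaling chain Fcer1g at 3128, 3042 and 3077 and the kinase Syk at 469, 322 and 303. Glycolysis and hypoxia genes had medians of 0.03 and -0.02 over 23 genes, with Gapdh at 1032, 1062 and 1214 CPM and the lipid droplet gene Hilpda at 101, 153 and 104.

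Of 19 measured chemokine and adhesion receptors, 13 were below 0 in the first pair and 12 above in the second, with medians of -0.12 and 0.07. C5ar1, the receptor of complement C5a, was at 249, 214 and 167 CPM, the formyl peptide receptor Fpr2 at 70.4, 41.7 and 38.9, and Ccr1 at 386, 424 and 434. The 16 dendritic differentiation genes had medians of 0.37 and 0.12, with 11 and 9 above 0, and 3 and 2 of them at least 2-fold higher, against 2.48% and 1.42% of all genes. The costimulatory ligand Cd86 was at 497, 349 and 377 CPM and Cd40 at 94.0, 77.8 and 127, whereas the lectin Clec10a was at 20.4, 35.0 and 57.9. Sub-cluster 9, of 34 monocytes and led by Cd209a, Cd7 and Klrb1b with Clec10a and Mgl2 after them, held Clec10a at 440 CPM against 28.1 in the other monocytes, and its part in the list's medians was not tested.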
